A study of Mus musculus with 16 samples.

Results

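Metallothioneins and the enzymes that remove superoxide and peroxides were compared between adult mouse retina and newborn mouse cortex, with every array of each tissue shown. The set was 10 listed genes: the metallothioneins Mt1, Mt2 and Mt3, the superoxide dismutases Sod1 and Sod2, the glutathione peroxidases Gpx1, Gpx3 and Gpx4, catalase (Cat) and the peroxiredoxin Prdx6. A probe set, the group of short oligonucleotides that reads a transcript on these arrays, was a member if the platform annotation gave it exactly 1 gene symbol and that symbol was on the list. This rule found 10 of the 12422 probe sets tested, of which 10833 had a single symbol and covered 8251 genes. They read 9 of the 10 listed genes, with 2 probe sets for Cat and 1 for each of the other 8 genes. No probe set carried Prdx6 as its single symbol in the annotation used, and Prdx6 was not analysed here.

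The 16 arrays, each read in 1 colour, measured aliquots of 2 RNA pools at 2 sites. The retina pool was adult C57/B6 retina from 350 mice and was read on 5 arrays at the first site and 3 at site 2. The cortex pool was postnatal day 1 cortex from 19 mice and was also read on 5 and 3 arrays. The site 2 labels call their arrays technical replicates. They give the cortex age as postnatal day 1 and no other details of the pools, such as the number of mice. The labels give the cortex strain both as C57/B6 and, in the account of the design, as Swiss-Webster, so organ and age, and possibly strain, cannot be told apart in any difference between the tissues. The arrays of a group are repeated measurements of a single pool, so every test below weighs the spread between arrays and none weighs the spread between animals.

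Metallothioneins are small, cysteine-rich proteins that bind zinc and copper and can take up reactive oxygen species. Mt1 and Mt2 are made by most cell types, in the brain chiefly by astrocytes, and are induced by metals and glucocorticoids, while Mt3 is the form found mainly in the nervous system. Superoxide dismutases turn superoxide into hydrogen peroxide, Sod1 with copper and zinc in the cytosol and Sod2 with manganese in the mitochondrial matrix. Catalase in peroxisomes and the selenium-dependent glutathione peroxidases then remove the peroxide. The retina is of interest for these enzymes because photoreceptors respire heavily, are exposed to light and carry membranes rich in polyunsaturated fatty acids, which oxidise readily.

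Mt1, Mt2 and Mt3 lie next to each other on chromosome 8 in RefSeq's order of protein-coding genes (GRCm38.p6), in the order Mt3, Mt2, Mt1. Their upstream sequences are shown because the genes share this neighbourhood and did not all differ between the tissues in the same direction. For Mt2 and Mt3 these are the 250 bases before the start site in the RefSeq table of GRCm38.p6, on the plus strand, 5′ to 3′. RefSeq's gene record for Mt1 (94178883 to 94180327) begins upstream of the start site its promoter table uses, so for Mt1 only 30 bases around the upstream match are shown. Capitals mark the core of the metal response element, the site bound by the zinc-sensing factor Mtf1, searched as TGCACNC or TGCGCNC on both strands.
Mt1, chr8:94179054-94179083: gcggtcccgctgTGCACACtggcgctccag
Mt2, chr8:94172368-94172617: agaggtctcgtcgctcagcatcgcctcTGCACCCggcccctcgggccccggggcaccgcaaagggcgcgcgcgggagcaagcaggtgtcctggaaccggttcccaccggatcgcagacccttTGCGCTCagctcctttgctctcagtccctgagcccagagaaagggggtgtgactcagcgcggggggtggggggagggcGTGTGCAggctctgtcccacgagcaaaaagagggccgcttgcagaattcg
Mt3, chr8:94152357-94152606: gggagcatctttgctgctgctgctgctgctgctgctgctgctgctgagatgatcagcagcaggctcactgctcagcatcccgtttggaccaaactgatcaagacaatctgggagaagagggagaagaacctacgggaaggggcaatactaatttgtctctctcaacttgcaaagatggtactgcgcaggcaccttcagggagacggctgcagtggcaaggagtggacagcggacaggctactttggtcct
In the 300 bases of each window, which add 50 bases after the start site, Mt2 had 4 matches, Mt1 had 3 and Mt3 had 1. The Mt1 window, 94178839 to 94179138, lies mostly within the Mt1 gene record. For Mt2 and Mt3 the start site used is the start of the gene record, so the Mt1 count cannot be ranked against theirs. Counted from the start site that the promoter table uses, the Mt1 matches began at base -23 and at bases 3 and 21 after it. The Mt3 match lay after the start site, at bases 28 to 34. At least 1 match was present in 25.7% of the 32851 promoter windows of the table, and 4 or more in 0.517%. None of the other 6 measured members had a match. The core of the antioxidant response element, searched as TGACNNNGC on both strands, was found in 2 of the 9 members, Mt2 and Sod1, against 12.4% of all windows. A TATA box, searched as TATAAA on both strands, was found in 1 of the 9, Sod1, against 13.6% of all windows. No metallothionein window held it. Most of the Mt1 window lies within that gene's RefSeq record, and bases outside the window were not searched. This does not show that Mt1 lacks a TATA box or an antioxidant response element. These are matches of letters in a fixed window around an annotated start, and the data here do not bear on whether a factor binds them. Whether transcription begins at the annotated starts in these tissues was not tested.

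Array brightness varied, with deposited medians from 45.7 to 216. Cortex replicate 2 of site 2 was the dimmest array, at 45.7 where the other 15 had medians of at least 88.5, and its log2 values correlated with those of the other cortex arrays of that site as low as 0.940, whereas replicates of the other groups correlated at 0.980 or more. Site 2 tissue differences of the members are therefore given with and without it, and other site 2 values printed below are given without it where a call changed or a value moved by over 1.5 times. Intensities below were scaled to a median of 100 on each array, and log2 differences are on the log2(intensity + 16) scale after each array was centred on its median. This scale understates the change of dim probe sets. All member values lay above the brightest no-target control of their array. The tissue labels held: at each site retina was higher for all 9 measured rod genes and lower for all 6 measured newborn cortical neuron genes.

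At the first site 8 of the 10 member probe sets passed the threshold of 0.05 (limma, Benjamini-Hochberg adjustment over 12422 probe sets), 6 higher and 2 lower in retina, where 47.1% of all probe sets passed, 21.9% higher and 25.2% lower. The higher ones were Mt1, Mt2, Sod1, Sod2, Gpx3 and Gpx4, and the lower ones were Mt3 and a Cat probe set. At site 2, 5 of the 10 passed, 4 higher and 1 lower, against 32.5% of all probe sets (16.7% higher, 15.9% lower), and without cortex replicate 2 this became 6, with Mt2 added, while the share of all probe sets rose to 47.9%. The 5 were Mt1, Sod1, Sod2, Gpx4 and Cat, each in its first-site direction. Passing in the same direction at both sites was thus seen for 5 of 10, against 28.6% of all probe sets. All 10 members were among the 6211 probe sets above the median signal, where more passed. Tested among those alone, 9 of 10 members passed at the first site, where 72% did. At site 2 it was 4 of 10, where 50.9% did. The median size of the difference was 0.64 on the log2 scale over the members at the first site and 0.31 over all probe sets, and at site 2 it was 0.61 and 0.36. The medians over all probe sets include dim ones, whose change this scale understates. A median over probe sets of like signal was not computed, so the larger sizes cannot be read as a trait of the members. The tissues' arrays did not overlap for 6 members at the first site (37.9% of all probe sets) and for 7 at site 2 (44.2%), counted on the log2 scale.

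**Figure D1:**
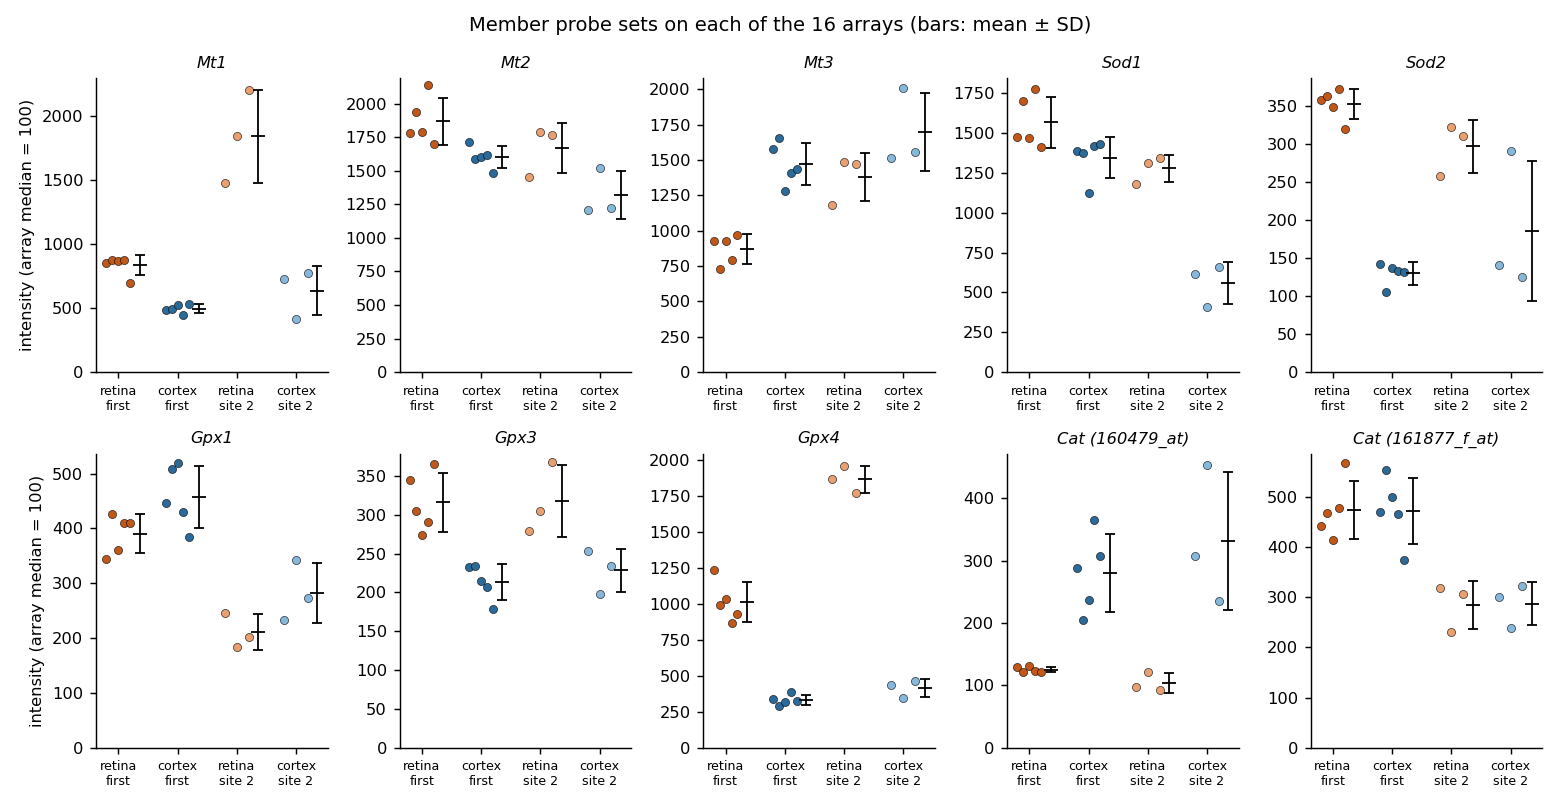
Scaled intensity (array median = 100, linear axis from 0) of the 10 member probe sets on each of the 16 arrays, with the mean and SD of each group beside its points. Gpx4 shows the widest gap between tissues, with retina arrays at 869 or more and cortex arrays at 466 or less, whereas the arrays of the tissues overlap for the second Cat probe set.

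Among the metallothioneins, Mt1 was higher and Mt3 lower in retina at the first site by the same size, while Mt2 differed little. Mt1 read 854, 878, 863, 873 and 696 on the first-site retina arrays and 481, 490, 525, 443 and 532 on the cortex arrays. Every retina array lay above every cortex array, and retina replicate 5 was the low member of its group. The difference was 0.74 ± 0.08 on the log2 scale (SE; limma adjusted p = 1.2e-06).

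At site 2 Mt1 reached 1473, 1845 and 2198 in retina against 724, 414 and 769.9 in cortex. The gap between the tissues again left no overlap, and the low cortex value was that of the dim replicate 2. The difference was 1.56 ± 0.28 (limma adjusted p = 0.0016), and 1.21 ± 0.15 without that array (limma adjusted p = 6.1e-05). Without centring the site 2 call was lost (1.501 ± 0.607, limma adjusted p = 0.14). The interaction with site, 0.82 ± 0.26, did not pass (limma adjusted p = 0.089), but did without cortex replicate 1 (0.96, limma adjusted p = 0.043) or 3 (1.03, limma adjusted p = 0.028) of site 2. Without the dim cortex replicate 2 it was smaller, 0.47 ± 0.17, and did not pass (limma adjusted p = 0.11).

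First-site Mt2 averaged 1870.1 ± 173 in retina against 1602 ± 82.7 in cortex (SD, n = 5 each). The ranges overlapped, with 4 of 5 retina arrays above all cortex arrays. The difference was 0.23 ± 0.07 (limma adjusted p = 0.016), which is 1.17-fold, and the call was lost without centring (limma adjusted p = 0.15). At site 2 the means were 1671 ± 189 and 1317 ± 179 (SD, n = 3 each), with overlapping scaled intensities. The difference there was 0.37 ± 0.14 and did not pass (limma adjusted p = 0.076, 95% interval 0.05 to 0.69), but passed without cortex replicate 2 (0.39 ± 0.11, limma adjusted p = 0.015). It also passed with all 16 arrays in one fit (limma adjusted p = 0.0078) and with quantile normalization (limma adjusted p = 0.023).

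Mt3, the neural metallothionein, read 929, 727, 929, 796 and 972 in retina and 1576, 1658, 1283, 1408 and 1435 in cortex at the first site. It was lower in all 5 retina arrays, with a difference of -0.74 ± 0.09 (limma adjusted p = 3.3e-06). At site 2 it read 1181, 1483 and 1476 in retina and 1515, 2014 and 1559 in cortex. Retina remained below cortex without overlap, by a smaller margin. That difference, -0.26 ± 0.15, did not pass (limma adjusted p = 0.24, 95% interval -0.59 to 0.07), nor did it without cortex replicate 2 (-0.22 ± 0.12).

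Marker genes of glial cells went different ways between the tissues. As a yardstick for their counts, 21.9% of all probe sets passed as higher and 25.2% as lower with the first-site arrays. With the site 2 arrays these shares came to 16.7% and 15.9%. Of 7 measured Mueller glia markers 6 were higher in retina, with the list's summed scaled intensity at 13347 to 13865 in first-site retina and 1545 to 1814 in cortex, and 13924 to 16262 and 1977 to 2069 at site 2. Of 9 astrocyte and radial glia markers 4 passed in each direction at the first site and 2 in each at site 2. Their sum was 6304 to 6945 in first-site retina against 7710.1 to 9488 in cortex, and 5991 to 7356 against 6071 to 11295 at site 2. Fabp7, a fatty acid binding protein of radial glia, made up most of the cortex sum, at 5051 to 6638 in first-site cortex and 80.3 to 90.3 in retina. The sum of the other 8 ran the other way, at 6221 to 6858 in first-site retina and 2574 to 3073 in cortex, and 5882 to 7224 and 2814 to 3773 at site 2; Fabp7 was singled out after its values were seen. No gene of either list was at or under the no-target controls on all arrays of a group. Their part in the metallothionein differences was not tested. In pooled tissue RNA, fewer cells of a type and less RNA per cell cannot be told apart.

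Both superoxide dismutases were higher in retina, but the site at which the larger difference was seen was not the same. Sod2, the mitochondrial enzyme, read 357, 362, 349, 372 and 320.0 in first-site retina and 143, 105, 137, 133 and 132 in cortex. The groups were far apart, at 1.35 ± 0.09 on the log2 scale or 2.55-fold (limma adjusted p = 2.8e-09).

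At site 2 Sod2 read 257, 323 and 310.0 in retina and 140.4, 291 and 125 in cortex. The cortex value of 291 is that of the dim replicate 2 and lies within the retina range. The difference was 0.76 ± 0.24 with it (limma adjusted p = 0.036) and 1.06 ± 0.13 without it (limma adjusted p = 6.2e-05). Leaving out retina replicate 1, 2 or 3 or cortex replicate 1 or 3 ended the call (differences of 0.85, 0.70, 0.73, 0.65 and 0.58, limma adjusted p from 0.065 to 0.12). In all the call was lost under 11 of 15 alternatives, which include a pseudocount of 1, no centring, quantile normalization and a fit without the intensity trend.

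Sod1, the cytosolic enzyme, read 1477, 1704, 1471, 1775 and 1410.1 in first-site retina and 1387, 1376, 1122, 1416 and 1431 in cortex. Only the cortex value of 1122 stood well below the rest, and the groups overlapped. The difference of 0.23 ± 0.09 passed narrowly (limma adjusted p = 0.041). It was lost under 10 of 19 alternatives, among them leaving out retina replicate 1, 2 or 4 (0.23, 0.20 and 0.18; limma adjusted p = 0.060, 0.10 and 0.11) or cortex replicate 1, 2 or 3 (0.24, 0.23 and 0.16; limma adjusted p = 0.052, 0.064 and 0.11).

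At site 2 Sod1 read 1183, 1312 and 1343 in retina and 617, 410.3 and 657 in cortex. In both pools every site 2 array lay below every first-site array. Retina was higher by 1.21 ± 0.22 (limma adjusted p = 0.0020), and by 0.93 ± 0.10 without the dim array (limma adjusted p = 2.4e-05). Sod1 was the single member whose tissue difference itself differed between the sites, with an interaction of 0.99 ± 0.22 (limma adjusted p = 0.014), where 3.36% of all probe sets passed, 2.07% with a larger and 1.3% with a smaller value at site 2. The interaction was 0.71 ± 0.14 without cortex replicate 2 (limma adjusted p = 0.0060), and was lost without centring (0.85 ± 0.57, limma adjusted p above 0.99).

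The 3 glutathione peroxidases behaved differently from each other. Gpx4, the selenoenzyme that reduces lipid hydroperoxides within membranes, read 1236, 988, 1029, 869 and 928 in first-site retina and 336, 293, 319, 385 and 323 in cortex. The lowest retina array was above the highest cortex array by more than the spread of either group. It had the largest difference of the members, 1.57 ± 0.10 or 2.97-fold (limma adjusted p = 1.6e-09), and 6.59% of all probe sets had a larger one.

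At site 2 Gpx4 read 1863, 1955 and 1769.7 in retina against 437, 344 and 466 in cortex. Its difference was 2.15 ± 0.18 or 4.45-fold (limma adjusted p = 1.2e-05), with 1.96 ± 0.10 without cortex replicate 2, and it was the only member that passed at site 2 without centring of the arrays. The interaction of 0.58 ± 0.20 did not pass (limma adjusted p = 0.12), though it did without cortex replicate 3 of site 2 (0.71, limma adjusted p = 0.0496). Without the dim replicate 2 it was 0.39 ± 0.17 (limma adjusted p = 0.17).

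Gpx3, the secreted plasma form, averaged 316 ± 37.7 in first-site retina against 213 ± 22.9 in cortex (SD, n = 5 each). All 5 retina arrays lay above the cortex arrays, with a difference of 0.54 ± 0.10 (limma adjusted p = 1.8e-04). At site 2 the means were 318 ± 46.0 and 228 ± 27.6 (SD, n = 3 each), again without overlap. The difference of 0.46 ± 0.18 did not pass there (limma adjusted p = 0.075, 95% interval 0.06 to 0.85), nor without cortex replicate 2 (0.32 ± 0.13, limma adjusted p = 0.060). With all 16 arrays in one fit it passed (0.46 ± 0.15, limma adjusted p = 0.016). Between sites Gpx3 differed by 0.00 ± 0.13 in the retina pool and 0.08 ± 0.13 in the cortex pool, the latter 0.22 ± 0.13 without that array, and none of these passed.

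Gpx1, the abundant cytosolic and mitochondrial form, was not called at either site. First-site retina averaged 390.3 ± 35.7 and cortex 457 ± 56.4 (SD, n = 5 each), and the arrays overlapped. The difference was -0.21 ± 0.09 (limma adjusted p = 0.059, 95% interval -0.40 to -0.03), and it passed when retina replicate 2 (-0.24, limma adjusted p = 0.048) or cortex replicate 5 (-0.27, limma adjusted p = 0.017) was left out. At site 2 the difference was -0.37 ± 0.17 (limma adjusted p = 0.14, 95% interval -0.75 to 0.01), and -0.29 ± 0.15 without cortex replicate 2 (limma adjusted p = 0.12).

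The 2 probe sets of Cat did not agree. The first, 160479_at, read 129, 122, 130.4, 123 and 121 in first-site retina and 289, 206, 236, 366 and 308 in cortex. The retina arrays were tightly grouped, with a coefficient of variation of 3.38%, and all lay below the cortex arrays, whose coefficient of variation was 22.3%. Retina was lower by a log2 difference of -1.05 ± 0.13 (limma adjusted p = 3.2e-06).

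At site 2 the same probe set read 98.1, 122 and 92.5 in retina and 308, 453 and 236 in cortex. The separation was complete and the highest cortex value was that of the dim replicate 2. The difference was -1.47 ± 0.20 (limma adjusted p = 2.7e-04), and -1.30 ± 0.16 without that array (limma adjusted p = 6.1e-05). Without centring it was -1.53 ± 0.71 and did not pass (limma adjusted p = 0.25).

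The second Cat probe set, 161877_f_at, averaged 475 ± 57.9 in first-site retina against 473 ± 65.9 in cortex (SD, n = 5 each). At site 2 they were 285 ± 47.6 and 287 ± 42.7 (SD, n = 3 each). Neither difference passed, at 0.02 ± 0.10 (95% interval -0.19 to 0.22) and 0.00 ± 0.20 (95% interval -0.44 to 0.44). Without cortex replicate 2 the site 2 difference was -0.18 ± 0.14 and did not pass (limma adjusted p = 0.33). In the array maker's naming an f in the suffix marks a probe set whose probes can match more than 1 sequence, and whether that bears on the disagreement was not tested.

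Red blood cells are rich in catalase and Gpx1, and markers of these cells were read as well. The first Cat probe set was called lower in retina at both sites, at -1.05 and -1.47. Gpx1, at -0.21 and -0.37, was not called at either site but passed under some alternatives. The second Cat probe set, at 0.02 and 0.00, was not called at either site. Of 7 measured erythrocyte markers 3 were lower in retina, 0 higher and 4 not called at the first site. At site 2 the counts were 4, 0 and 3. Among all probe sets 25.2% were lower in retina at the first site and 15.9% at site 2. The markers' summed scaled intensity was 830.4 to 955 in first-site retina and 3379 to 3763 in cortex, and 833 to 905 and 3918 to 5011 at site 2. Epb42 and Car1 were at or under the no-target controls on every array of the 4 groups. The part of red cells in the Cat difference was not tested.

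**Figure D2:**
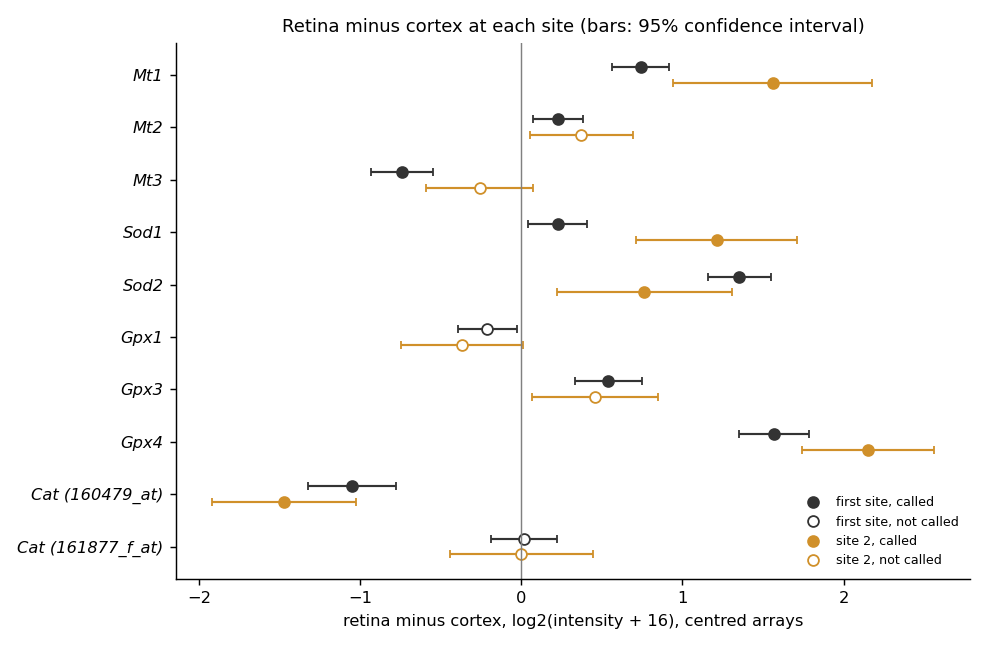
Retina minus cortex on the log2(intensity + 16) scale for each member probe set at the first site (5 arrays per tissue) and at site 2 (3 per tissue), with 95% confidence intervals and filled points for limma adjusted p under 0.05. Mt1, Sod1, Sod2, Gpx4 and the first Cat probe set are filled at both sites, and for Mt1 and Sod1 the intervals of the sites do not overlap.

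**Figure D3:**
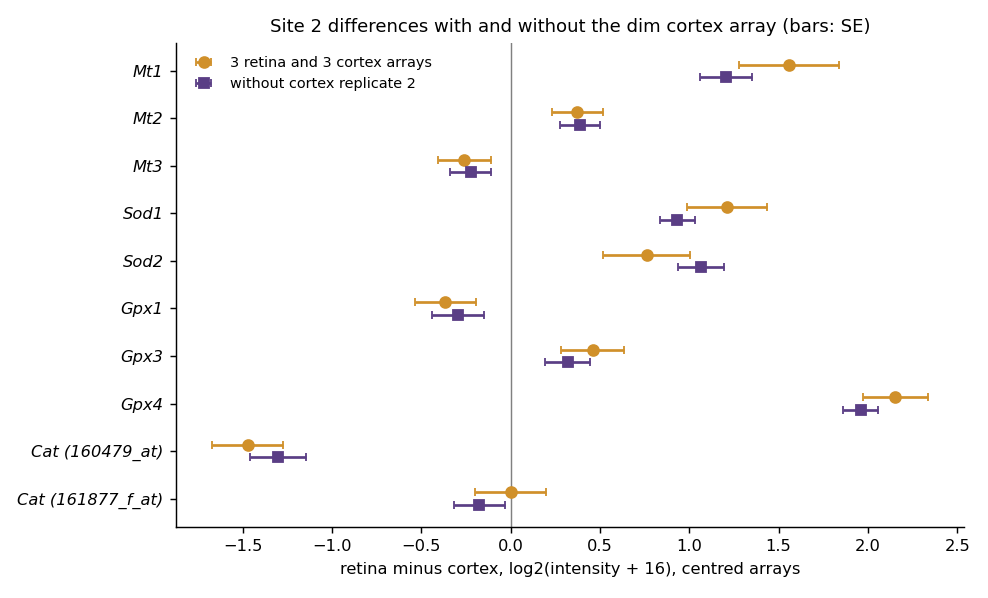
Retina minus cortex at site 2 (log2, bars are SE) with all 6 arrays and without cortex replicate 2. The Sod2 difference grows from 0.76 to 1.06 and the Sod1 difference falls from 1.21 to 0.93, while the called members keep their directions.

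Setting each pool against itself shows how far the sites shifted these readings. In the retina pool 5 of 10 member probe sets differed between sites, 3 higher and 2 lower at site 2, against 35.7% of all probe sets, of which 23.2% were higher and 12.5% lower. Mt1 was higher at site 2 by 1.11 ± 0.18 on the log2 scale (limma adjusted p = 1.2e-04), Gpx4 by 0.88 ± 0.14 (limma adjusted p = 8.9e-05) and Mt3 by 0.65 ± 0.11 (limma adjusted p = 1.9e-04). Sod1 differed by -0.29 ± 0.15 in this pool and was not called (limma adjusted p = 0.15), though it passed with the 8 retina arrays alone (limma adjusted p = 0.019), with quantile normalization (-0.51, limma adjusted p = 0.0050) and among probe sets above the median signal (-0.49, limma adjusted p = 0.0056). Gpx1 was lower, at -0.85 ± 0.12 (limma adjusted p = 2.6e-05), and so was the second Cat probe set, at -0.72 ± 0.14 (limma adjusted p = 7.0e-04). For each of the 5 called the retina arrays of the sites did not overlap. None passed without centring, where 290 probe sets did, 113 higher and 177 lower, in place of 4437, 2882 higher and 1555 lower. With quantile normalization the split was 2202 higher and 1935 lower.

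In the cortex pool 4 of 10 differed between sites, all lower at site 2, against 16.7% of all probe sets, of which 10.3% were higher and 6.4% lower. Sod1 was lower by -1.28 ± 0.15 (limma adjusted p = 2.0e-05), and 0.652% of probe sets had a larger shift. The others were Gpx1 at -0.70 ± 0.12 (limma adjusted p = 7.4e-04), the second Cat probe set at -0.70 ± 0.14 (limma adjusted p = 0.0026) and Mt2 at -0.31 ± 0.10 (limma adjusted p = 0.029). Without cortex replicate 2 of site 2, Mt1 (0.64 ± 0.13, limma adjusted p = 0.0010) and Gpx4 (0.49 ± 0.13, limma adjusted p = 0.0065) passed as higher too, which makes 6 of 10. In that setting 40.1% of all probe sets passed and their split turned, with 2176 higher and 2800 lower in place of 1281 and 795. The Mt2 call was lost under 11 of 16 alternatives, among them leaving out cortex replicate 1, 3 or 4 of the first site (-0.29, -0.32 and -0.31; limma adjusted p = 0.070, 0.052 and 0.054) or replicate 1 or 3 of site 2 (-0.29 and -0.32; limma adjusted p = 0.10 and 0.059). The Sod2 shift in cortex, 0.34 ± 0.17, was not called (limma adjusted p = 0.17). It passed without replicate 3 of site 2 (0.53, limma adjusted p = 0.045) and was 0.04 ± 0.12 without the dim replicate 2 (limma adjusted p = 0.79).

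**Figure D4:**
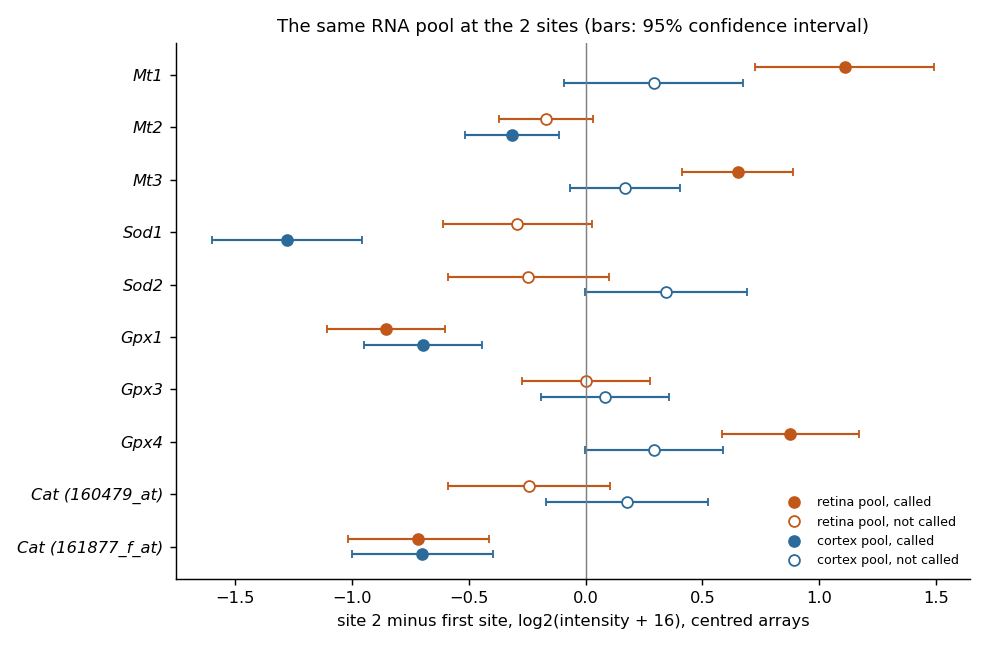
Site 2 minus first site on the log2(intensity + 16) scale within the retina pool and within the cortex pool for each member probe set, with 95% confidence intervals and filled points for limma adjusted p under 0.05. Gpx1 and the second Cat probe set are lower at site 2 in both pools, while Mt1, Mt3 and Gpx4 are higher in the retina pool and Sod1 is lower in the cortex pool.

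The order of the 4 groups therefore differed from gene to gene. For Gpx4 the mean scaled intensities ran from 1863 ± 92.7 in site 2 retina and 1010.1 ± 140 in first-site retina to 415 ± 63.7 in site 2 cortex and 331 ± 33.7 in first-site cortex, and the last pair was not called apart with all arrays in. For Mt1 they ran from 1839 ± 363 and 833 ± 77.1 in retina at site 2 and the first site to 636 ± 194 and 494 ± 35.9 in cortex, again with the cortex pair not called apart. For Sod1 the 2 retina groups and first-site cortex lay at 1567 ± 161, 1279 ± 85.1 and 1346 ± 127, and site 2 cortex stood apart at 561 ± 132. For Gpx1 both first-site groups lay above both of site 2, with 457 ± 56.4 and 390.3 ± 35.7 at the first site above 283 ± 54.7 and 211 ± 32.3 at site 2.

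Beyond the members, 6 lists of related genes were read, with each gene represented by its probe set of highest mean over the 16 arrays. Of all probe sets, 21.9% were higher and 25.2% lower at the first site, and 16.7% and 15.9% at site 2. Among those above the median signal, 72% and 50.9% passed at the sites, in either direction. Taking the brightest probe set favours bright ones, and shares for probe sets of like signal were not computed, so the counts of the lists cannot be read as their trait. Among 28 other measured glutathione enzymes, first-site retina was higher for 9 and lower for 6, and site 2 retina for 7 and 6. Gsta4, a transferase that conjugates the lipid peroxidation product hydroxynonenal, was at least 4.22-fold higher at the first site, where 1 of 5 cortex arrays was above the no-target controls. Glo1, the glyoxalase that detoxifies methylglyoxal, was higher by 1.83 ± 0.08, with 1.45 ± 0.07 from the other probe set. Gpx7, a peroxidase of the endoplasmic reticulum, was at least 2.13-fold lower, its retina arrays all being at or under the controls. Mgst3, a microsomal transferase, differed by -1.42 ± 0.09, while its second probe set lay at or under the controls on all 16 arrays.

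The thioredoxin, peroxiredoxin and glutaredoxin list had 4 of 15 measured genes higher and 7 lower at the first site, and 4 and 5 at site 2. Srxn1, the sulfiredoxin that repairs overoxidised peroxiredoxins, was higher in retina by 1.79 ± 0.10 (-0.20 ± 0.13, not passing, on its other probe set), and Txn2, mitochondrial thioredoxin, by 0.50 ± 0.08. Txnip, the thioredoxin inhibitor, differed by -1.75 ± 0.13 (0.06 ± 0.12, not passing, on its other probe set) and Txn1, cytosolic thioredoxin, by -1.35 ± 0.07. Txn1 differed by -0.93 ± 0.14 at site 2 (limma adjusted p = 6.4e-04).

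Genes of the oxidative stress response and NADPH supply were 8 higher and 6 lower of 23 at the first site, and 6 and 3 at site 2. Nfe2l2, the transcription factor Nrf2 that drives antioxidant genes, was higher by 1.503 ± 0.128 and 1.75 ± 0.18 at the sites, and Me1, the cytosolic malic enzyme, by 1.42 ± 0.08 and 1.13 ± 0.15. The NADP-dependent isocitrate dehydrogenases went the other way at the first site, Idh1 by -2.08 ± 0.08 and the mitochondrial Idh2 by -1.10 ± 0.13. Idh1 differed by -1.59 ± 0.14 at site 2, and Idh2 did not pass there (-0.63 ± 0.24, limma adjusted p = 0.073) except without cortex replicate 2 (-0.93 ± 0.12, limma adjusted p = 1.2e-04).

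Of 22 metal handling genes 8 were higher and 4 lower at each site. Cp, the copper ferroxidase ceruloplasmin, was at least 13.1-fold higher in first-site retina, with all cortex arrays at or under the controls, and higher by 3.44 ± 0.38 at site 2. Cox17, the copper chaperone of cytochrome oxidase, was higher by 1.75 ± 0.09 and 1.59 ± 0.15. Slc39a6, a zinc importer, differed by -0.77 ± 0.10 and -0.94 ± 0.18, and at site 2 Aco1, the iron-responsive aconitase, by -1.53 ± 0.30. At the first site Aco1 was at least 1.55-fold lower in retina, with 2 of 5 retina arrays above the controls. Mtf1, the factor whose element was searched above, was higher by 0.67 ± 0.10 and 1.13 ± 0.25, and is named after its values were seen.

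Of 9 selenoprotein genes and genes for making selenoproteins, 4 were higher and 1 lower at the first site, and 3 and 0 at site 2 (5 and 1 without cortex replicate 2). Pstk, the kinase that primes the selenocysteine tRNA, was higher by 2.02 ± 0.16 and 1.55 ± 0.15, and Selenof, a selenoprotein of the endoplasmic reticulum, by 0.36 ± 0.07 at the first site and 0.40 ± 0.08 on its other probe set. Selenoh, a nuclear selenoprotein, differed by -0.72 ± 0.07 there. At site 2 Selenof gave 0.35 ± 0.19 and Selenoh -0.30 ± 0.15, and both passed only without cortex replicate 2 (0.53 ± 0.12 and -0.35 ± 0.12, limma adjusted p = 0.0050 and 0.029). The other Selenof probe set passed at site 2 with 0.77 ± 0.23 (limma adjusted p = 0.025), and with 0.48 ± 0.10 without that array. The peroxisome list, which holds catalase's organelle, had 9 of 19 genes higher and 2 lower at the first site, and 11 and 0 at site 2 (12 and 2 without cortex replicate 2). Scp2, sterol carrier protein, was higher by 1.38 ± 0.16 (0.96 ± 0.12 on its other probe set) and the import receptor Pex7 by 1.33 ± 0.09, whereas the transporter Abcd3 differed by -0.60 ± 0.07 and the import receptor Pex5 by -0.50 ± 0.10. Neither of the last pair passed at site 2 with all arrays (-0.42 ± 0.15 and -0.11 ± 0.29), and both did without cortex replicate 2 (-0.43 ± 0.12 and -0.48 ± 0.14, limma adjusted p = 0.014 and 0.017). The median difference of this list was 0.39 at the first site and 0.60 at site 2, beside -0.05 and -0.02 over all probe sets. It was the largest median of the 6 lists at both sites. The medians of the other lists ran from -0.18 (thioredoxin list) to 0.22 (selenoprotein list) at the first site. At site 2 they ran from -0.18 to 0.31 for the same lists.

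**Figure D5:**
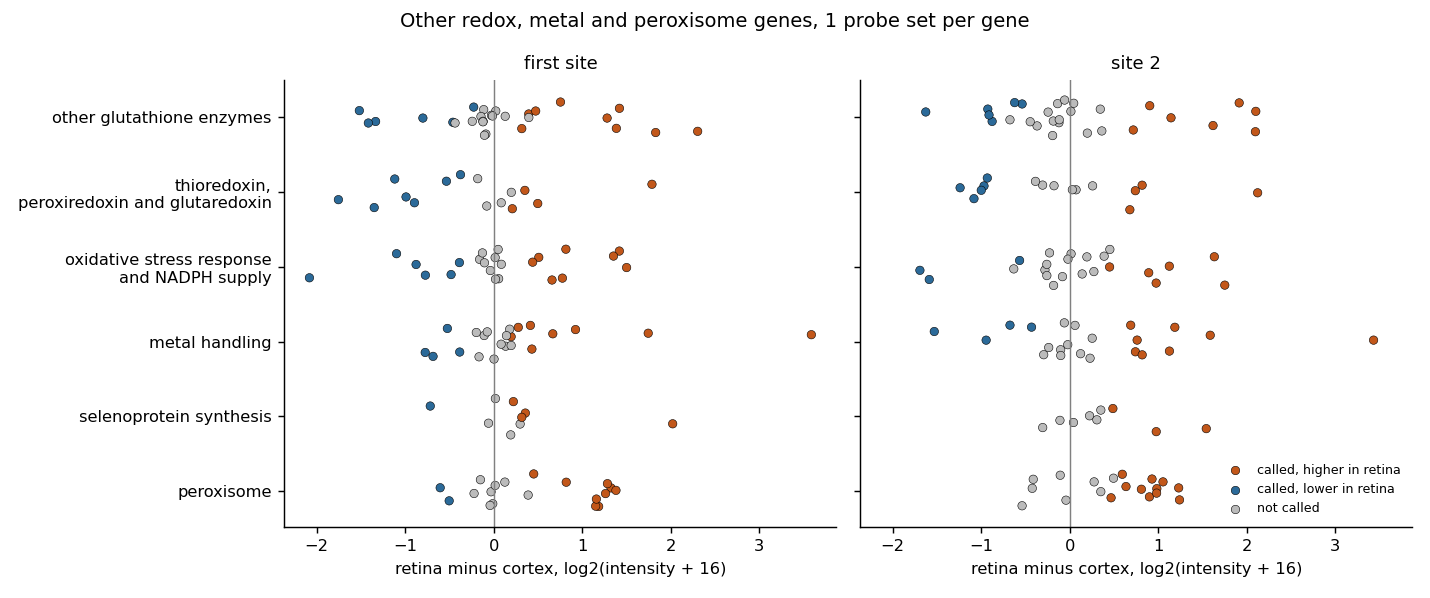
Retina minus cortex (log2(intensity + 16)) of each measured gene in 6 lists at the first site and at site 2, coloured by call at limma adjusted p under 0.05, with small vertical offsets for legibility. In the thioredoxin list 7 of 15 genes are lower and 4 higher at the first site, and 5 and 4 at site 2. In the peroxisome list 9 of 19 are higher and 2 lower at the first site, and 11 and 0 at site 2. Of all probe sets 21.9% are higher and 25.2% lower at the first site, and 16.7% and 15.9% at site 2.

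The probe sets whose profile was most like that of a member were found by Pearson's r of centred log2 values over the 16 arrays, for the 4 members with the largest first-site differences among those read from their brightest probe set. For Gpx4 they were Camk2d, a calcium/calmodulin kinase (r = 0.990), Ttc7b (0.989) and the sestrin Sesn1 (0.989). For Sod2 they were Dpm1 (0.988), Tax1bp1 (0.986) and Degs1 (0.985). For Mt3 they were Selenoh (0.956), Dnmt1 (0.939) and Cd99l2 (0.936), and for Mt1 they were Mrpl34 (0.991), Puf60 (0.984) and Unc45a (0.981). These values describe arrays that fall into 4 groups and that share their pools and their brightness, so high values come readily.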

How the data were processed

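Arrays were hybridised with biotin-labelled cRNA from about 10 µg of total RNA, per the labels. The deposited intensities are linear, 1 per probe set and array; how the authors summarised, background-corrected and scaled them is not given in the sources used here. All 66 control probe sets were left out, which leaves 12422. Values were transformed to log2(intensity + 16) and centred on each array's median. The models were limma's (version 3.58.1, under R 4.3.3, with moderated variances that follow an intensity trend), each site on its own for tissue differences and all 16 arrays for interactions and site differences, with two-sided tests adjusted by Benjamini-Hochberg over all probe sets. Folds given as "at least" apply where most of a group's arrays were not above the floor, and use the highest of 13 no-target controls on each array as a floor. The number of arrays limits the precision. Genes named are all members, the 2 genes per direction and list with the largest passing first-site difference, and the 3 most alike probe sets of 4 members. Outside this rule, Mtf1 and Fabp7 are named after their values were seen. Epb42 and Car1 are named because they lay at or under the no-target controls. Members and lists were chosen with earlier results of these data known. Alternatives were other pseudocounts, centrings, filters and fits, and leaving out each array. Symbols were updated to RefSeq by Entrez identifier, and promoters are RefSeq's for GRCm38.p6, with all 9 measured members matched.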

Additional observations from a re-analysis of the deposited data

Results flagged for a closer look

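Of 20 groups of 5 first-site arrays (10 member probe sets in each tissue), 3 held an array far from the rest by Dixon's criterion, where chance gives about 1 in 20. Mt1 read 696 in retina replicate 5, with the nearest array at 854. Sod1 read 1122 in cortex replicate 3, with the nearest at 1376. Sod2 read 105 in cortex replicate 2, with the nearest at 132. The tissue difference of Sod1 was larger at site 2 than at the first site by an interaction of 0.99 on the log2 scale (limma adjusted p = 0.014). For the other 9 member probe sets the interaction did not pass, which does not show that their differences were equal at the sites.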

How the results depend on the processing

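No member difference that passed changed sign under any alternative run. Of 900 values of single member probe sets under alternatives, 834 kept their side of the threshold, 45 no longer passed and 21 newly passed, and 16 of these 66 changes came without centring of the arrays. Without centring, member probe sets passing fell to 1 between the tissues at site 2, 0 for the interaction and 0 between sites in each pool, and all probe sets passing to 781, 34, 290 and 79. With probe sets above the median signal only, 9 of 10 member probe sets differed between sites in retina, where 48.2% of the 6211 retained did. With all 16 arrays in one fit, 8 members passed between the tissues at site 2, where 40.8% of all probe sets did. Without the intensity trend 255 probe sets passed the interaction, and with the 8 cortex arrays alone 1120 differed between sites in cortex.

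Leaving out each array in turn gave 1 to 3 members for the interaction, and 3 to 6 between sites in cortex. Over all probe sets it gave 212 to 671 for the interaction, with 671 without cortex replicate 2 of site 2, and 1480 to 4976 in cortex between sites, with 4976 without that same array. The split of interaction calls, 257 higher and 161 lower, became 13 and 21 without centring and 215 and 230 with quantile normalization, and that of cortex site calls, 1281 and 795, became 1110 and 1147 with quantile normalization. The cause of these changes was not tested. With the replicate number as a block 8 members passed at the first site, 5 at site 2 and 1 for the interaction, the same numbers as without it. Same-numbered arrays of the tissues correlated between -0.19 and 0.04 in their deviations at the first site and between 0.01 and 0.08 at site 2, so the numbers do not pair them. Site differences could not be fitted with this block.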
